A study of Mus musculus with 8 samples.

Results

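The mouse genome holds 400 annotated genes named Zfp with a number, and 58 of them were read here through 65 rows of the count table that belong to other genes on the opposite strand. A row was taken where its exons overlap at least 50 bases of the exons of such a Zfp gene and where its mean over the 8 libraries was at least 5 counts, and each row is named below by the Zfp gene it overlaps, followed in parentheses by its own symbol. The whole table has 54146 rows. The rows are read here as counting mainly fragments from the strand opposite to their own gene, so that the row of an antisense or overlapping gene would read its Zfp partner. No source used here states this, and it was taken from the values. Rmrp, an abundant noncoding RNA, had 899 to 3314 counts per library in its own row, while Ccdc107, which overlaps it on the other strand, had 85234 to 194016. The rows of 2 genes that most cells express strongly held few counts, 15 to 40 per library for Gapdh and 201 to 750 for Actb. These values do not show the strand of single fragments, and a transcript of the row's own gene that reached the counts through strand leakage cannot be told apart. The 65 rows had a median of 38.6 counts per library, a value that the limit of 5 counts raised. Over all 88 pairs with such an overlap, at any count, the opposite-strand row was higher in 66 and the Zfp row in 22, with medians of 26.1 and 4.31 counts. Of the 400 Zfp genes, 74 had any row with such an overlap, and 23 of the 88 rows found were under the mean of 5 counts, among them 3 at 0 in every library.

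Zinc finger proteins of the C2H2 class bind DNA with an array of fingers, each a short fold that holds a zinc ion between a pair of cysteines and a pair of histidines. Many also carry a KRAB domain, which recruits TRIM28 (KAP1) and with it the methyltransferase SETDB1, so that lysine 9 of histone H3 becomes methylated at the bound site, often a transposable element. KRAB zinc finger genes lie in clusters of related copies, and the clusters themselves carry methylated H3K9. EHMT1 and EHMT2 (GLP and G9a) are also H3K9 methyltransferases, and they work in a complex with the zinc finger proteins WIZ and ZFP644.

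The cells were ID8-OR, a mouse ovarian cancer line with the label olaparib-resistant, grown in culture and given 1 of 4 treatments for 72 hours. The DMSO group had the solvent control, the olaparib group a PARP inhibitor, the EZM8266 group an inhibitor of EHMT1/2, and the combination group both compounds, with 2 libraries in each group. All groups share the resistant background, and parental ID8 cells were not analysed here. The labels speak of treatment or transfection replicates without saying whether these were separate cultures, so that the p-values here reflect only how far these libraries differ, possibly for technical reasons. Combination replicate 2 carries EZM8267 in its treatment label and was kept with its title. The sample numbers in the labels are 33 to 36 for the EZM8266 and combination libraries and 41 to 44 for the DMSO and olaparib libraries. What these numbers stand for is not stated. They split the libraries as EZM8266 does, so that a difference tied to them cannot be told apart from one with the compound. The libraries held 973382 to 1680974 counts, 4.54% to 5.4% of their fragments, and the 65 rows took 0.695% to 0.916% of the counts. A floor of 3 counts corresponded to 1.85 to 3.02 CPM (counts scaled by library size). Of the 25 cell type markers, the epithelial keratin Krt8 was the only one with an opposite-strand row of at least 5 counts (Gm36026, mean 283 counts, of which the overlap covers 6.12% of the exon bases). The rows that carry the marker symbols read the other strand and are a weak check: 10 epithelial rows summed to 88 to 183 counts per library, 4 endothelial rows to 1 to 6, 6 immune rows to 89 to 135, nearly all from Csf1r with Itgam, Cd3e and Lyz2 at 0, and 5 fibroblast rows to 46 to 240, mainly from Col1a1 with Pdgfrb at 0. Among the epithelial rows Krt19 had the highest mean (34.1 counts), while Krt7, Cdh1 and Epcam had at most 1 count in any library. Pax8 had 3 to 9 counts per library without EZM8266 and 18 to 47 with it, and Krt8 had 15 to 23 and 6 to 13. These counts are not scaled by library size. Krt8 had 13 counts in combination replicate 1 and 17 in DMSO replicate 2, whose scaled library sizes were 992828 and 1619388. Scaled by library size, Krt8 therefore overlaps between libraries with and without EZM8266.

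What a row reads of its Zfp gene differs from pair to pair, and 2 very short rows show it to the base. Gm24082 and Gm25953 are annotated as miRNA genes of 83 bases, and each lies wholly within the coding exon of a zinc finger gene on the other strand. Gm24082 (mm10, chr5:138606699-138606781) lies in Zfp68 and Gm25953 (mm10, chr6:118429170-118429252) lies in Zfp248. Read on the strand of the Zfp gene, each holds 1 complete C2H2 finger. The codons of the cysteines and histidines are in capitals.
Zfp68 (Gm24082 row): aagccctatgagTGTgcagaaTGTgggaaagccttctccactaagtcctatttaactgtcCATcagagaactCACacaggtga
Zfp248 (Gm25953 row): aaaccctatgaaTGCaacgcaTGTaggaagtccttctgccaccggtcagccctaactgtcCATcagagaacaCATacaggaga
The 2 sequences are identical at 59 of 83 positions, 71.1%. Fingers of this class share such letters in many genes, so that fragments of related genes could also be assigned here, which was not tested.

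A longer stretch is read in Zfp459, a gene of the chromosome 13 zinc finger cluster. Its row, Gm48900, covers 457 bases of Zfp459, all coding, with all 3 fingers of the coding sequence. The fingers span 231 bases on the minus strand (mm10, chr13:67408411-67408641), again with the zinc-binding codons in capitals.
Zfp459 (Gm48900 row): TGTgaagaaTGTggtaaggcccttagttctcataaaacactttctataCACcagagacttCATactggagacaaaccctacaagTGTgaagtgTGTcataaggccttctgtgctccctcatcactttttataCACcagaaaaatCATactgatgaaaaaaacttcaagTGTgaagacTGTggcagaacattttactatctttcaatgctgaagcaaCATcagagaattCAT
Over all pairs, 12 rows cover at least 1 whole finger and 40 fingers in sum, with 13 of 13 in Zfp90 (Gm26786), 5 of 5 in Zfp213 (Gm26695), 6 of 6 in Zfp784 (Zfp865 row) and 4 of 36 in Zfp142 (Plcd4). A C2H2 pattern was found in the coding sequence of 56 of the 58 genes, with a median of 9 fingers, against 378 of 391 Zfp genes with a complete coding sequence and a median of 10. The 2 without one are Zfp703 and Zfp36. Zfp36 (tristetraprolin) binds AU-rich elements of messenger RNAs through fingers of another class and speeds their decay, and Zfp703 is a transcriptional cofactor that is amplified in some breast cancers.

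Of the 65 rows, 23 lie head to head with the Zfp gene (the upstream ends overlap), 21 tail to tail (the downstream ends overlap), 18 inside the Zfp gene, and 3 hold the Zfp gene within their own span. Most overlap bases were 3' UTR in 24 rows, coding in 19, 5' UTR in 15 and exons of noncoding transcripts in 7. By annotation the rows are 24 antisense genes, 20 protein-coding genes, 8 lincRNAs, 4 of the class TEC, 4 processed transcripts, 3 miRNAs, 1 pseudogene and 1 RNA from a bidirectional promoter. Gm24563, the third miRNA row, lies in the 5' UTR of Zfp777. The overlap made up a median of 25.4% of a row's exon bases. It was at least 50% in 21 rows and under 10% in 20. In 9 rows another opposite-strand gene overlaps more bases of the row than the Zfp gene does. These include Dnajc7 over the Nkiras2 row (287 bases against 65 of Zfp385c), Eif2b4 over the Snx17 row (204 against 163 of Zfp513), Ptgr2 over the Gm47484 row (1896 against 225 of Zfp410) and Nktr over the E530011L22Rik row (2182 against 109 of Zfp651). The counts of such rows cannot be told apart by gene, and where in a row the fragments lie was not measured.

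Promoters were looked up for the head-to-head pairs, where the row and the Zfp gene can share their start region. Not all of them do, as in Zfp26 (Gm26733), where all overlap bases are 3' UTR. RefSeq promoter sequences (GRCm38.p6, 250 bases before to 50 after the start) were matched by symbol for 47 of the 58 genes, and 17 of the head-to-head pairs had starts within 2000 bases. The core of the sequence bound by ZFP143 (ACTACA, then any 2 bases, then TCC) was searched on both strands and was present in 3 of these 17 promoters (17.6%), in 15.2% of the 400 promoters listed for 330 Zfp genes and in 1.97% of all 32817 promoters. The 3 are Zfp74, Zfp712 and Zfp748, and the 100 bases before each start are printed with the match in capitals, on the strand of the gene.
Zfp74 (chr7:29954066-29954165, minus strand): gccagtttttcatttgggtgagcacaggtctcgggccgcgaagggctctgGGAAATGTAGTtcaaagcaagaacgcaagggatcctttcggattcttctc
Zfp712 (chr13:67061171-67061270, minus strand): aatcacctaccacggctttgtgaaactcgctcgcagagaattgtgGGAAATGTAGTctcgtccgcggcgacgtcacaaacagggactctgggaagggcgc
Zfp748 (chr13:67553153-67553252, minus strand): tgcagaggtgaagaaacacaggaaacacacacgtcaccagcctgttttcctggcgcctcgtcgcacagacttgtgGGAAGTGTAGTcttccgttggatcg
The GC box GGGCGG was present in 10 of the 17 (58.8%, against 35.6% of all promoters), CCAAT in 4 (23.5% against 37.4%), the ETS core CCGGAAG in 3 (17.6% against 8.86%), a YY1 core in 2 (11.8% against 0.63%) and an NRF1 core in 1 (5.88% against 4.59%). In the 400 Zfp promoters the GC box was present in 44.25%, CCAAT in 47.5% and the ETS core in 21.0%. The YY1 core was present in 1.0% of them and the NRF1 core in 8.5%. The 17 promoters held a median of 18 CpG dinucleotides, against 7 over all promoters. These matches describe letters and show no binding.

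**Figure D1:**
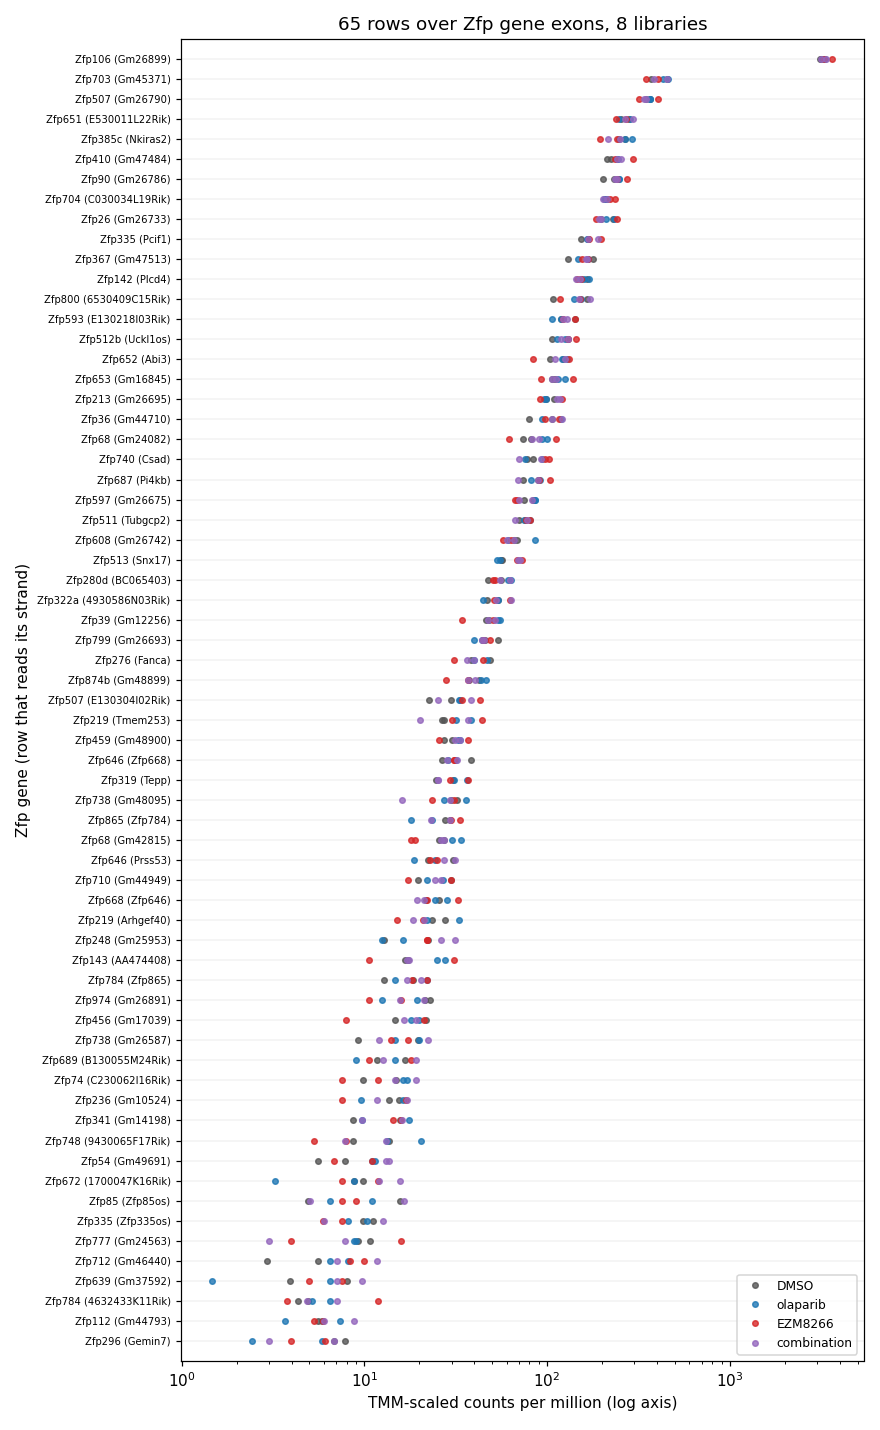
TMM-scaled CPM (log axis) of each of the 65 rows in each of the 8 libraries, one row of points per pair, ordered by mean and coloured by treatment. The points of the upper rows lie close together in all 4 groups, and they spread in the lower rows.

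The level of the pairs spanned a wide range and was steady across libraries where counts were high. Zfp106 (Gm26899 row) stood far above the rest. It encodes an RNA-binding protein needed for the upkeep of motor neurons and muscle, and its row lies inside the gene (mm10, chromosome 2, 120532904 to 120539846) with 81.7% of its exon bases over Zfp106 exons. Its TMM-scaled level was 3114 and 3141 CPM in DMSO, 3312 and 3276 in olaparib, 3282 and 3643 in EZM8266 and 3168 and 3345 in the combination libraries. The DMSO libraries were the 2 lowest, and the highest library was 1.17 times the lowest. The EZM8266 effect over the 4 libraries with the compound against the 4 without it was 0.07 on the log2 scale, with a 95% interval of -0.10 to 0.23.

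Per kilobase of row exons, the highest levels were 1048 CPM for the Gm24082 row of Zfp68, 987 for Zfp106, 900 for Zfp703 (Gm45371), 248 for the Gm25953 row of Zfp248, 223 for Zfp36 (Gm44710) and 156 for Zfp507 (Gm26790), against a median of 22.0 over the 65 rows and a lowest value of 1.85 for Zfp784 (Zfp865 row). A fragment is longer than the short rows and counts if it touches them, so a level per kilobase is raised for rows of 83 bases. Rows inside the Zfp gene had a median of 51.8 CPM per kilobase, tail-to-tail rows 22.2, head-to-head rows 17.6 and the 3 rows that hold the Zfp gene 8.68. Rows with at least 50% of their bases in the overlap had a median of 52.9, those with 10% to under 50% had 15.4, and those under 10% had 19.4. The plot of level per kilobase against overlap shows that the values of these classes overlap widely.

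**Figure D2:**
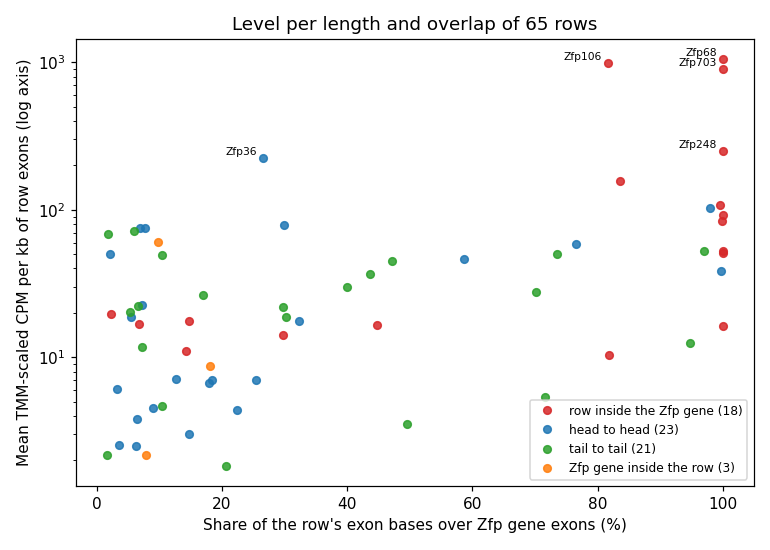
Mean TMM-scaled CPM per kilobase of row exons (log axis) against the percent of the row's exon bases that lie over Zfp exons, one point per row, coloured by arrangement. The 5 labelled points are above 200; 4 of them lie inside the Zfp gene with most of their bases over it, and Zfp36 is a head-to-head row.

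The other rows among the 12 with the most counts ranged over 1.16 to 1.50 times from the lowest to the highest library. Zfp703 (Gm45371), whose row lies wholly within coding sequence of the gene, had 453 and 372 CPM in DMSO, 429 and 458 in olaparib, 348 and 403 in EZM8266 and 387 and 453 in the combination libraries. Zfp507 (Gm26790) had 365 and 347, 367 and 363, 319 and 403, and 350 and 338 CPM in the same order. EZM8266 replicate 1 was the lowest library for both. Both EZM8266 libraries lay below both olaparib libraries for Zfp703, and both combination libraries lay below both olaparib libraries for Zfp507, while the 4 libraries with EZM8266 overlapped the 4 without. Zfp651 (E530011L22Rik) ranged from 237 to 294 CPM over the 8 libraries and Zfp704 (C030034L19Rik), a factor with 1 finger, from 202 to 235. Zfp26 (Gm26733), with 22 fingers, ranged from 186 to 240 CPM. Zfp367 (Gm47513) ranged from 131 to 177 and Zfp142 (Plcd4), with 36 fingers the longest array among these genes, from 144 to 170. In none of these were the libraries with EZM8266 separated from those without.

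Among these 12 rows both EZM8266 libraries lay above both DMSO libraries for Zfp106, Zfp704, Zfp335, Zfp410 and Zfp90, and below for Zfp385c. Both combination libraries lay above DMSO for Zfp106, Zfp410 and Zfp90, and below for Zfp26 and Zfp142. None passed the test. ZFP335 is a subunit of complexes that methylate histone H3 on lysine 4, and its row (Pcif1) had 154 and 168 CPM in DMSO, 168 and 165 in olaparib, 197 and 170 in EZM8266 and 167 and 189 in the combination libraries. ZFP410 is known as an activator of Chd4, the ATPase of the NuRD repressor complex. Its row (Gm47484) had 222 and 212 CPM in DMSO, 243 and 242 in olaparib, 235 and 293 in EZM8266 and 255 and 241 in the combination libraries, so that each treated library lay above both DMSO libraries, and the differences against DMSO were 0.16 (SE 0.14), 0.28 (SE 0.14) and 0.19 (SE 0.14) on the log2 scale. Ptgr2 covers more of that row than Zfp410 does. ZFP90 is a KRAB protein, and its row (Gm26786) had 203 and 231, 249 and 247, 241 and 273, and 240 and 236 CPM in the same order, again with both DMSO libraries lowest. For the Gm47484 row the edgeR adjusted p was 0.854 with EZM8266 against DMSO, the same value as for the Gm26786 row.

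No Zfp pair passed the test in any comparison. The filter on low counts left 61 of the 65 rows for edgeR's quasi-likelihood test, and the rows of Zfp639, Zfp112, Zfp296 and the 4632433K11Rik row of Zfp784 were not tested. Against DMSO, 0 of 61 members were called at an adjusted p under 0.05 with olaparib (0.0% of the 6379 rows tested), 0 with EZM8266 (0.204% of rows) and 0 with the combination (0.219% of rows). Against olaparib the combination gave 0 (0.0941% of rows) and against EZM8266 it gave 0 (0.0% of rows). The EZM8266 effect over 4 against 4 libraries gave 0 (0.658% of rows) and the interaction of both compounds gave 0 (0.0% of rows). With shares this small in the whole table, a count of 0 in 61 is near the background. DESeq2 also called 0 in each of the 7 comparisons. At an unadjusted p under 0.05 the EZM8266 effect had 3 members (4.92%, against 6.77% of rows), the combination against olaparib had 1 (1.64% against 3.81%), and the other 5 comparisons had 0. Over all rows those 5 shares were 1.83% for olaparib, 5.72% for EZM8266 and 4.89% for the combination (each against DMSO), 1.54% for the combination against EZM8266 and 1.61% for the interaction. The smallest adjusted p of a member in edgeR's fit was 0.584 for the EZM8266 effect, 0.973 for the combination and 0.999 for olaparib (both against DMSO), and 0.854 when EZM8266 was set against DMSO.

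The intervals show what size of change the data leave room for. With EZM8266 against without, 52 of the 61 tested members had a 95% interval within 2-fold in both directions, and 35 within 1.5-fold. Among the 22 members with a mean of at least 100 counts, all 22 had it within 2-fold, in the EZM8266 effect and in each of the 5 comparisons of 2 groups, and their intervals for the EZM8266 effect reached from -0.47 to 0.44 on the log2 scale. In the interaction, 21 of the 22 stayed within 2-fold. The 95% intervals were not adjusted for the number of rows. The ratio of the highest to the lowest library had a median of 1.35 in these 22 members, against 1.34 over the 1329 tested rows of that depth.

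**Figure D3:**
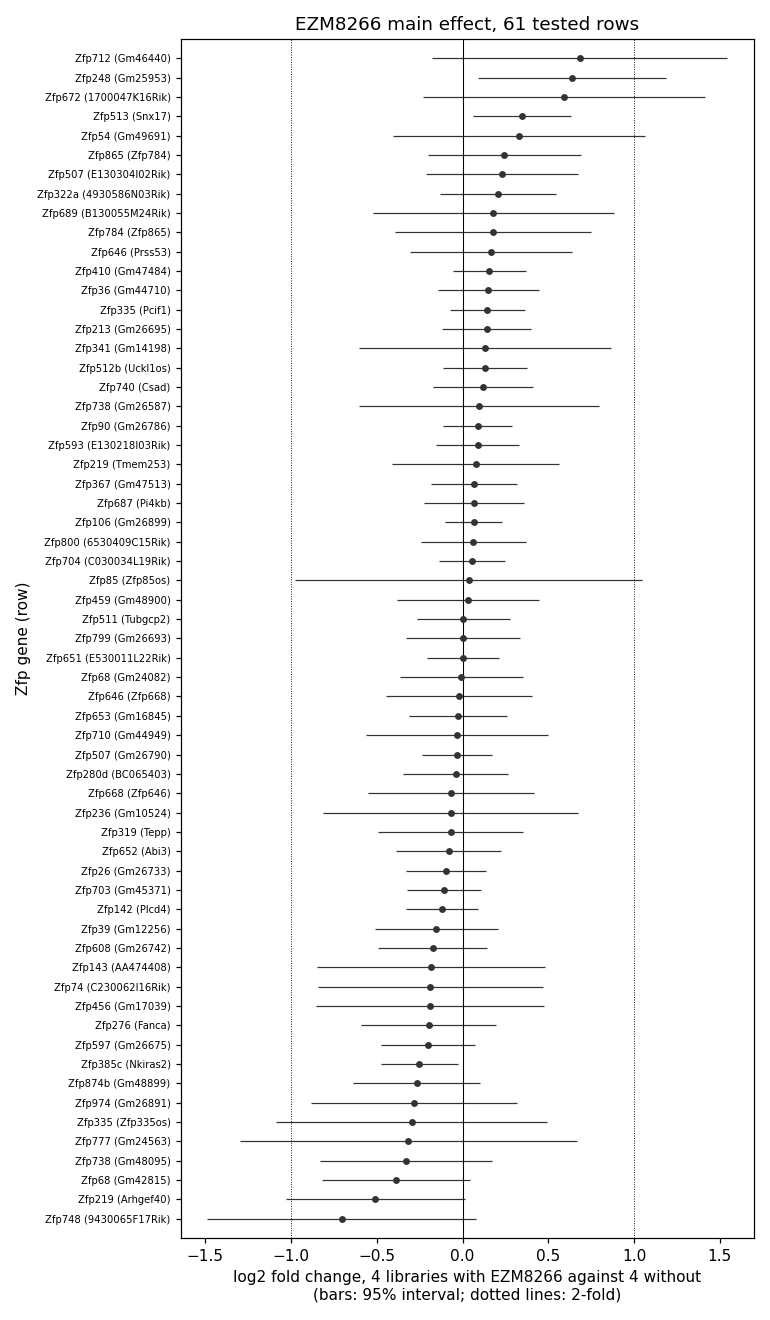
Log2 fold change of the 61 tested rows between the 4 libraries with EZM8266 and the 4 without, with the 95% interval as bars and dotted lines at 2-fold. The points lie on both sides of 0, 32 above and 29 below, and the bars widen for rows with few counts.

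As a group, the members stayed close to 0. The median log2 fold change of the 61 tested members for the EZM8266 effect was 0.00, against -0.02 over all rows, with 32 members above 0 (52.5%, against 47.4% of rows). With EZM8266 against DMSO the median was 0.03 against -0.02 over all rows, with 33 above 0 (54.1% against 47.2%). With the combination against DMSO it was 0.03 against -0.02, with 36 above 0 (59% against 47%). With olaparib against DMSO it was 0.10 against -0.01, with 40 above 0 (65.6% against 48.4%), and 18 members had both olaparib libraries above both DMSO libraries (29.5% against 15.1% of rows) while 5 had both below (8.2% against 15.6%). Those 3 comparisons share the DMSO libraries. For the combination against olaparib the median was -0.03, against -0.01 over all rows, with 27 above 0 (44.3% against 48.8%). For the combination against EZM8266 it was 0.03, against 0.00, with 34 above 0 (55.7% against 49.4%), and for the interaction -0.02, against 0.01, with 28 above 0 (45.9% against 51.0%). The median deviation of the tested members from their own means was lowest in DMSO replicate 2 (-0.06, log2) and highest in EZM8266 replicate 2 (0.15), which has 973382 counts, the fewest together with combination replicate 2 (973396), and the pooled SD between libraries of a group was 0.08. The part of depth in these medians was not tested.

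Separation of the groups was counted as well. EZM8266 lay above DMSO in 13 members (21.3%, against 16.2% of rows) and below in 9 (14.8% against 15.6%). The combination lay above DMSO in 12 (19.7% against 17.1%) and below in 8 (13.1% against 18.8%). The combination lay above olaparib in 7 (11.5% against 15.9%) and below in 17 (27.9% against 16.1%), and above EZM8266 in 9 (14.8% against 12.2%) and below in 8 (13.1% against 11.7%). In the comparison of 4 against 4 libraries, 1 member lay wholly above (1.64%, against 3.32% of rows) and 1 wholly below (1.64% against 2.02%). These were Zfp513 and Zfp219.

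**Figure D4:**
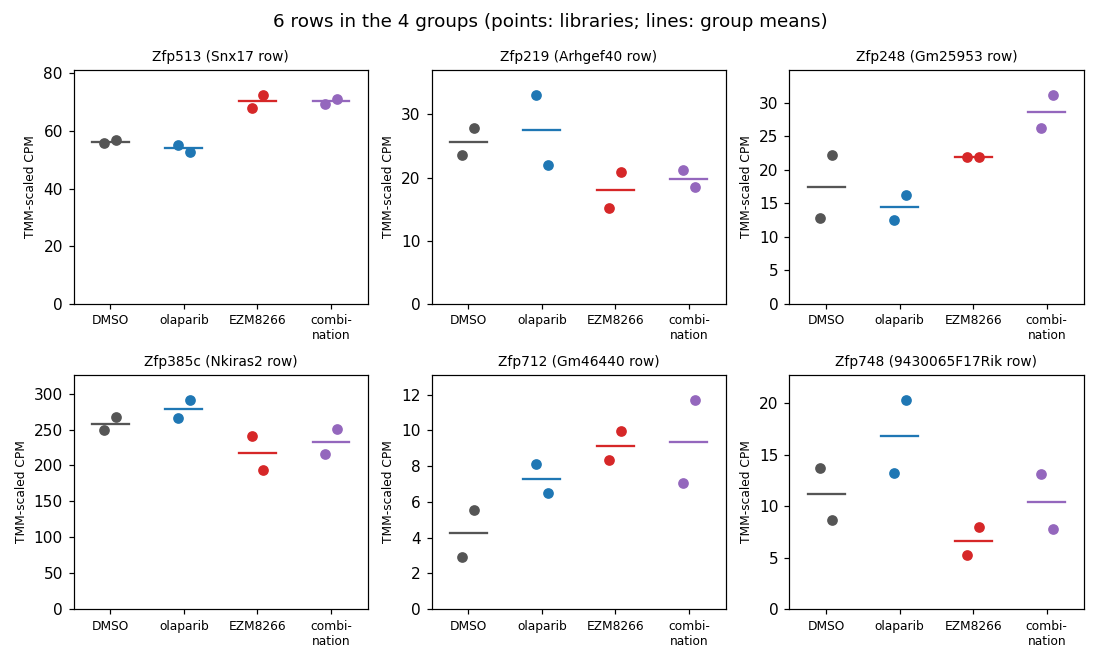
TMM-scaled CPM of 6 rows in the 4 groups, with a point per library and a line at each group mean; each axis starts at 0. The Snx17 row of Zfp513 is higher in all 4 libraries with EZM8266, the Arhgef40 row of Zfp219 is lower in all 4, and the points of the other 4 rows overlap between libraries with and without the compound.

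Zfp513, known for a role in photoreceptors, was the member with the smallest p in the EZM8266 effect. Its row is Snx17 (mm10, chromosome 5, 31193227 to 31199143), a sorting nexin gene that meets Zfp513 tail to tail over 163 bases of 3' UTR. The row had 55.8 and 56.8 CPM in DMSO, 55.2 and 52.9 in olaparib, 68.1 and 72.6 in EZM8266 and 69.5 and 71.1 in the combination libraries. The 4 libraries with EZM8266 averaged 70.3 ± 1.96 CPM (SD, n = 4) and the 4 without it 55.2 ± 1.68 (SD, n = 4), and the groups did not overlap. The log2 fold change was 0.35 (SE 0.13, 95% interval 0.06 to 0.63), with an adjusted p of 0.584 by edgeR's quasi-likelihood test. Eif2b4, a subunit of a translation initiation factor, overlaps 204 bases of the same row, so that the difference cannot be assigned to Zfp513.

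Zfp219, a transcription factor described as a partner of SOX9, was read through 2 rows that did not move alike. The Arhgef40 row meets its 3' end and had 23.5 and 27.8 CPM in DMSO, 33.1 and 22.0 in olaparib, 15.1 and 20.9 in EZM8266 and 21.2 and 18.5 in the combination libraries. All 4 libraries with EZM8266 lay below the other 4, narrowly, and the log2 fold change was -0.51 (SE 0.24, 95% interval -1.03 to 0.01, adjusted p = 0.758 by edgeR). The overlap with Zfp219 is 1.69% of that row, and Gm16617 covers more of it. The Tmem253 row, over the 5' UTR of Zfp219, had 27.4 and 26.6, 38.3 and 31.7, 30.3 and 43.8, and 20.1 and 37.0 CPM in the same order. Both EZM8266 and both olaparib libraries lay above both DMSO libraries, the combination libraries spanned the whole range, and the log2 fold change over 4 against 4 libraries was 0.08 (95% interval -0.41 to 0.56).

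Zfp248 gave the largest difference among members with an unadjusted p under 0.05. Its single finger in the Gm25953 row, printed above, had 12.7 and 22.2 CPM in DMSO, 12.5 and 16.3 in olaparib, 21.9 and 21.9 in EZM8266 and 26.2 and 31.2 in the combination libraries. Both combination libraries were above all others, and DMSO replicate 2 reached the level of EZM8266, so that the 4 against 4 overlapped. The log2 fold change was 0.64 for the EZM8266 effect (SE 0.25, 95% interval 0.09 to 1.19, edgeR adjusted p = 0.614) and 1.00 for the combination against olaparib (95% interval 0.21 to 1.78). The Gm24082 row of Zfp68, a finger of much the same sequence, had 81.3 and 74.1, 99.3 and 94.3, 62.0 and 111, and 90.7 and 82.8 CPM, with an EZM8266 effect of -0.01 (95% interval -0.36 to 0.35). The 2 EZM8266 libraries were the lowest and the highest of that row.

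Zfp385c was the third member with an unadjusted p under 0.05. Its row, Nkiras2, an inhibitor of NF-kappaB signalling, had 249 and 267 CPM in DMSO, 266 and 291 in olaparib, 241 and 194 in EZM8266 and 216 and 250 in the combination libraries. The libraries with EZM8266 were lower on average by 0.25 on the log2 scale (SE 0.10, 95% interval -0.47 to -0.03, adjusted p = 0.625 by edgeR), with combination replicate 2 above DMSO replicate 1. Only 65 bases of the row belong to Zfp385c, and Dnajc7, a co-chaperone, covers 287.

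EZM8266 and DMSO libraries did not overlap in 22 of the 61 tested members (36.1%, against 31.9% of rows). For the combination against DMSO it was 20 members (32.8%, against 36% of rows). Of the 22, 8 had a mean of at least 100 counts and 14 had fewer, and of the 20 it was 8 and 12. Among all 61 tested members, 22 had a mean of at least 100 counts, so these splits show no clear lean to either depth. The members below are those with the largest differences in each direction and therefore lean to rows with few counts and wide intervals. With EZM8266 against DMSO they included, on the higher side, Zfp712 (Gm46440) with a log2 fold change of 1.01 (SE 0.58), the E130304I02Rik row of Zfp507 with 0.53 (SE 0.29), the Tmem253 row of Zfp219 with 0.44 (SE 0.32) and Zfp740 (Csad) with 0.30 (SE 0.19). On the lower side they included Zfp974 (Gm26891) with -0.77 (SE 0.39), Zfp748 (9430065F17Rik) with -0.73 (SE 0.54), the Zfp335os row of Zfp335 with -0.62 (SE 0.52) and the Gm42815 row of Zfp68 with -0.51 (SE 0.29). With the combination against DMSO they included Zfp54 (Gm49691) with 1.02 (SE 0.49), Zfp672 (1700047K16Rik) with 0.55 (SE 0.51), the Gm24563 row of Zfp777 with -0.86 (SE 0.68), Zfp668 (Zfp646 row) with -0.20 (SE 0.33) and the Gm48095 row of Zfp738 with -0.44 (SE 0.33). ZFP668 is known from DNA repair and as a candidate breast tumour suppressor, and its row had 25.5 and 21.6 CPM in DMSO, 24.3 and 28.5 in olaparib, 32.5 and 21.9 in EZM8266 and 21.2 and 19.5 in the combination libraries. None of these passed the test, and the Gm24563 row ranged from 3.02 to 15.9 CPM within the libraries with EZM8266 alone or combined.

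In 7 Zfp genes, 2 rows read the same gene, which gives a measure of how far a row can stand for its gene. Their levels per kilobase differed by 59.6 times in Zfp68 (1048 CPM per kilobase for Gm24082 and 17.6 for Gm42815), by 8.04 times in Zfp219, by 3.75 in Zfp335, by 3.37 in Zfp507, by 3.23 in Zfp738, by 2.91 in Zfp784 and by 2.59 in Zfp646. The value for Zfp68 is raised by the short Gm24082 row of 83 bases, and the mean counts of its rows were 102.9 and 31.25. The log2 EZM8266 effects of the 2 rows had opposite signs in 5 of the 6 genes where both were tested, and the same sign in Zfp68 (-0.01 and -0.39), and the 95% intervals of the 2 rows overlapped in all 6. They were 0.15 and -0.30 in Zfp335, -0.03 and 0.23 in Zfp507, 0.16 and -0.02 in Zfp646, and -0.33 and 0.10 in Zfp738. The Zfp784 and Zfp865 genes read each other over 2041 bases, as do Zfp646 and Zfp668 over 608, so that each of these rows is at the same time the row of a Zfp gene.

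By position, 25 of the 58 genes lay in a run of at least 3 Zfp genes with gaps of at most 500000 bases, and 33 lay outside. There are 33 such clusters with 241 Zfp genes in all, and 14 clusters held a member. Of the clustered genes 14.5% had an overlapping row at any count and 10.4% were members, against 24.5% and 20.8% of the 159 genes outside clusters. Member rows within clusters had a median of 12.1 CPM per kilobase and those outside 27.9. The median EZM8266 effect was -0.01 within clusters, with 13 of 28 tested rows above 0, and 0.05 outside, with 19 of 33 above 0. The chromosome 4 cluster of 18 Zfp genes held no member, and the chromosome 17 cluster of 23 genes held 2 rows, Zfp54 and Zfp213. Zfp213 (Gm26695) had 109 and 98.2 CPM in DMSO, 95.6 and 98.4 in olaparib, 91.5 and 120 in EZM8266 and 114 and 117 in the combination libraries.

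The largest group of members lay in the cluster on chromosome 13 between 66669928 and 67827002 (mm10), which holds 24 Zfp genes, 20 of them on the minus strand. It held 8 rows over 7 genes. Zfp874b (Gm48899) had 37.2 and 42.6 CPM in DMSO, 43.4 and 46.4 in olaparib, 28.0 and 36.8 in EZM8266 and 40.3 and 37.0 in the combination libraries. Both EZM8266 libraries lay below all others, both olaparib libraries lay above all others, and DMSO and the combination overlapped (log2 EZM8266 effect -0.27, 95% interval -0.64 to 0.10). Zfp459 (Gm48900), whose fingers are printed above, had 27.4 and 30.3, 32.4 and 33.3, 25.7 and 36.8, and 33.2 and 31.2 CPM, an effect of 0.03 (95% interval -0.38 to 0.45). The 2 rows of Zfp738 had effects of -0.33 (Gm48095, 16.1 to 35.8 CPM) and 0.10 (Gm26587, 9.26 to 22.4 CPM).

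The 2 chromosome 13 genes with the ZFP143 core in their promoters had opposite signs. Zfp712 (Gm46440) had 2.94 and 5.56 CPM in DMSO, 8.09 and 6.51 in olaparib, 8.32 and 9.95 in EZM8266 and 7.05 and 11.7 in the combination libraries, so that both DMSO libraries were the lowest, one of them at the floor of 3 counts. Zfp748 (9430065F17Rik) had 13.7 and 8.65, 13.2 and 20.3, 5.30 and 7.96, and 13.1 and 7.80 CPM, with both EZM8266 libraries below both DMSO libraries. The EZM8266 effects were 0.68 (95% interval -0.18 to 1.54) and -0.70 (95% interval -1.49 to 0.08), and neither passed the test. Zfp143 itself (AA474408) had 16.6 and 17.3 CPM in DMSO, 25.0 and 27.6 in olaparib, 10.6 and 30.8 in EZM8266 and 17.1 and 17.5 in the combination libraries, with the lowest and the highest library in 1 group.

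**Figure D5:**
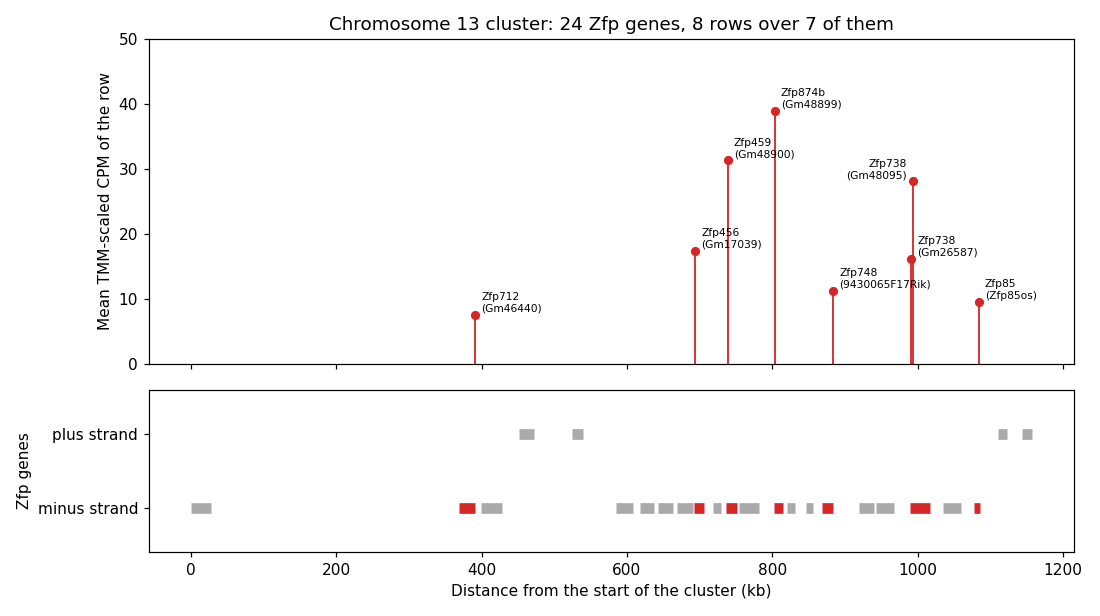
Mean TMM-scaled CPM of the 8 rows in the chromosome 13 cluster (upper panel, linear axis from 0) and the 24 Zfp genes by strand (lower panel), against distance from the start of the cluster in kilobases; genes read through a row are red. The rows from Zfp456 to Zfp738 fall in the dense middle part, and Zfp874b is the highest.

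Summed over the 8 rows, the chromosome 13 cluster had 137 to 173 CPM in the 4 libraries with EZM8266 (152 ± 15.1, SD, n = 4) and 153 to 181 in the 4 without (168 ± 12.7, SD, n = 4), which overlap. The cluster at 127233061 to 127885996 on chromosome 7, with 4 rows of Zfp689, Zfp668 and Zfp646, summed to 87.7 to 104 CPM with EZM8266 and 87.1 to 106 without. The cluster at 4915217 to 5053723 on chromosome 7, with 3 rows of Zfp865 and Zfp784, summed to 47.3 to 63.7 and 43.4 to 50.6 CPM. Zfp865 (Zfp784 row) had 29.4 and 27.8 CPM in DMSO, 23.5 and 17.9 in olaparib, 33.3 and 29.8 in EZM8266 and 23.2 and 29.2 in the combination libraries, the 2 olaparib libraries lying below both DMSO libraries. By chromosome, the 17 rows of chromosome 7 summed to 743 to 894 CPM with EZM8266 and 761 to 831 without, the 10 rows of chromosome 13 to 355 to 402 and 330 to 395, the 5 rows of chromosome 2, nearly all from Zfp106, to 3476 to 3980 and 3400 to 3620, the 4 of chromosome 8 to 663 to 754 and 677 to 781, and the 4 of chromosome 9 to 567 to 699 and 605 to 703. The 4 rows of chromosome 11 summed to 366 to 428 CPM with EZM8266 and 427 to 477 without (395 ± 25.7 and 446 ± 23.3, SD, n = 4 each), with Nkiras2 as the largest row. In all of them the libraries with and without EZM8266 overlapped.

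The genes that write, read and remove H3K9 methylation were looked up in the same way, as a list of 33. Through opposite-strand rows 9 of them were read in 11 rows, all tested, and 0 of 11 were called in any of the 7 comparisons by edgeR, with 1 at an unadjusted p under 0.05 in each of the EZM8266 effect (6.77% of all rows), the combination against olaparib (3.81%) and the interaction (1.61%). In the EZM8266 effect 4 of 11 were above 0, against 47.4% of all rows. Kdm3b, a demethylase of H3K9 (Gm26538 row), had 89.1 and 84.0 CPM in DMSO, 80.9 and 91.1 in olaparib, 65.8 and 73.6 in EZM8266 and 67.5 and 72.1 in the combination libraries, all 4 with the compound below the other 4. Its log2 EZM8266 effect was -0.31 (95% interval -0.57 to -0.04) with an edgeR adjusted p of 0.616. The effect was 0.05 for Suv39h1 (Gm14820, mean 417 counts), 0.04 for Suv39h2 (Dclre1c row), 0.09 and -0.19 for the 2 rows of Setdb1, -0.43 for Atf7ip (Gm44140) and -0.12 for Wiz (Gm26858). The overlap was 3.83% of the exon bases of Dclre1c, and 2.04% of Cers2 and 17.3% of Gm37500, the Setdb1 rows. The effects of these rows cannot be assigned to Suv39h2 or Setdb1. Another Suv39h2 row, Gm13184, had a mean of 10.1 counts, and its effect is not given here. The row under the symbol Wiz had a mean of 243.75 counts, above the 43.6 of Gm26858, so that Gm26858 is a doubtful reading of Wiz. Zfp644, the zinc finger partner of EHMT1/2, and the KRAB genes Zfp57, Zfp809, Zfp568 and Zfp932 have no row with a 50-base overlap, and the row over Zfp961 had a mean of 0.5 counts. Of these 33 genes, 19 were tested in their own rows, which read the other strand, with 0 calls.

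A list of other zinc finger families (ZBTB, ZSCAN, ZKSCAN, KLF and SP names among them) was read in 26 rows over 23 genes, of which 23 rows were tested. The match was by symbol and also took in Sp110 (G530012D18Rik row), which is not a factor of the SP family. The single call was for the Gm17017 row of Sp140, which matched the list by its symbol but is a PHD and bromodomain protein of nuclear bodies and not a factor of the SP family. It had 20.6 and 21.0 CPM in DMSO, 18.4 and 34.2 in olaparib, 43.9 and 49.7 in EZM8266 and 65.5 and 62.4 in the combination libraries. Its log2 EZM8266 effect was 1.23 (SE 0.20) with an adjusted p of 0.0127 by edgeR, and the combination against DMSO gave 1.61 (SE 0.29, edgeR adjusted p = 0.0412). The other 22 rows were not called in any comparison. Over all rows, 0.658% were called in the EZM8266 effect and 0.219% in the combination against DMSO. At an unadjusted p under 0.05 by edgeR, EZM8266 against DMSO had 4 of the 23 rows (5.72% of all rows). The EZM8266 effect had 2 (6.77%), and the combination had 1 against DMSO (4.89%) and 1 against olaparib (3.81%). The remaining comparisons had 0.

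At the edges of the rule, the rows just inside the mean of 5 counts were Zfp296 (Gemin7, 6.5 counts), the 4632433K11Rik row of Zfp784 (7.0) and Zfp112 (Gm44793, 7.12). Just outside were rows over Zfp605 (Gm15484, 4.88), Zfp276 (Vps9d1, 4.38) and Zfp706 (Gm26766, 4.25). The smallest overlaps inside were 65 bases in Zfp385c (Nkiras2), 79 in Zfp608 (Gm26742) and 83 in Zfp248 (Gm25953), and the largest outside were 39 bases in Zfp346 (Gm17617), 22 in Zfp597 (Naa60) and 14 in Zfp384 (4930557K07Rik).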

How the data were processed

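RNA from 8 libraries was measured as fragment counts per gene. Libraries were made with a KAPA mRNA HyperPrep kit after removal of ribosomal RNA and read as pairs of 150 bases, per the labels' protocols. HISAT2 2.1.0, Subread 1.6.2, MultiQC 1.7 and FastQC 0.11.8 were used with the build mm10, per the submitters' processing notes. The deposited table holds raw counts; per the file headers, featureCounts 1.6.2 counted pairs over exons of GENCODE M18 with strand setting 1, a fragment counting for every gene it touches. The deposited summary gives counts of assigned and unassigned fragments, from which the percent assigned was computed.

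Overlaps were computed from the exons of the deposited counts (GENCODE M18). Names, gene classes, coding sequence and the UTR parts came from GENCODE M21 on the same assembly. Counts were tested with edgeR 4.0.16 (R 4.3.3), all 8 libraries in 1 fit of 4 group means, TMM scaling, filterByExpr (minimum count 10, total 15) and Benjamini-Hochberg adjustment over the 6379 rows kept. The EZM8266 effect is the mean of the contrasts EZM8266 against DMSO and combination against olaparib. Intervals use the fit's SE and degrees of freedom. CPM are TMM-scaled. The scripts were tested on simulated data. Fingers are a Cys, 2 to 4 codons, Cys, 12 codons, His, 3 to 5 codons, His. The floor is 3 counts, for counting error only.

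Named members are those with the 12 highest means, up to 5 per direction in 3 EZM8266 comparisons with no overlap between groups and at least 5 CPM, up to 3 per cluster with at least 3 members, and those at the edges of the rule; members that illustrate a point were added after their values were seen. The members and lists were chosen with earlier results of these data known. Other settings were DESeq2 1.42.0, RLE scaling, other filters, a fit of the compared groups alone, a replicate block, a strand leakage covariate, libraries left out, and stricter overlap or count limits. Protein sequences were not used here.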

Additional observations from a re-analysis of the deposited data

How the results depend on the processing

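Called members numbered 0 in all 7 comparisons under DESeq2 1.42.0, RLE scaling, no filter and a filter of 1 CPM in 4 libraries. The same held with the replicate block and with the leakage covariate. The fit of the compared groups alone, run only for comparisons between pairs of groups, also gave 0. The stricter overlap and count limits keep part of the same 65 rows, so that their 0 was fixed in advance. Fits without a library leave 1 library in a group and are described by effect size only. The rule gave 65 rows, 58 with an overlap of at least 100 bases, 60 with a mean of at least 10 counts, 50 with 1 opposite-strand partner, and 33 with at least 25% of the row in the overlap. Leaving out 1 library at a time, the median log2 fold change of the tested members ranged from 0.04 to 0.12 for olaparib against DMSO, from -0.047 to 0.13 for EZM8266 against DMSO, from 0.02 to 0.10 for the combination against DMSO, from -0.05 to 0.00 for the combination against olaparib, from -0.048 to 0.16 for the combination against EZM8266, from -0.029 to 0.090 for the EZM8266 effect and from -0.11 to 0.088 for the interaction. Most of these ranges include both signs, and the highest value for EZM8266 against DMSO was without EZM8266 replicate 1. The interaction median was -0.10 when both libraries with the most rows above 0 counts (19399 in DMSO replicate 1, 18785 in olaparib replicate 2) were left out. The cause of these shifts was not tested.

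Whether same-numbered replicates belong together is not stated in the labels and was not tested. Their deviations correlated at -0.31, -0.32 and -0.15 between DMSO and the other groups and at 0.22 to 0.29 among the other groups. With the replicate block the EZM8266 effect had a member median of 0.00 and 0 members called, and 39 of all rows called against 42 without the block. With the DMSO numbers crossed, a setting added after the data were seen, 0 members and 133 rows were called.

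At 973382 to 1680974 counts per library, depth limits the rows with few counts: 9 of 61 members had an EZM8266 effect whose interval passed 2-fold on 1 side or both.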
